A study of Mus musculus with 6 samples.

Results

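The genes described here code for the subunits of the mitochondrial respiratory chain and of ATP synthase. They were taken by symbol: every gene of the array's annotation whose symbol begins with Nduf, Uqcr, Cox4 to Cox8 or Atp5, together with Sdha, Sdhb, Sdhc and Sdhd. This gave 88 of the 20416 genes on the array, of which 41 were counted to complex I, 4 to complex II, 7 to complex III, 19 to complex IV and 17 to ATP synthase. The prefixes also take in genes that are no subunit, such as the assembly factors Ndufaf1 to Ndufaf4, and Cox4nb, now known as Emc8, a component of the endoplasmic reticulum membrane protein complex. Each gene's value is the mean log2 intensity of the probe sets that name that gene alone.

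Complex I takes electrons from NADH and complex II takes them from succinate. They reach complex III through ubiquinone and complex IV through cytochrome c, where oxygen is reduced, and ATP synthase uses the proton gradient built along the way to make ATP. Most subunits are encoded in the nucleus and are joined with a few encoded by mitochondrial DNA. Hepatocytes rely on this system for gluconeogenesis, urea synthesis and the oxidation of fatty acids.

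Expression was measured in hepatocytes of 3 miR-143DOX mice and 3 control mice, with 1 Affymetrix array per animal. The miR-143DOX mice carried a doxycycline-inducible allele of the microRNA miR-143, and the control mice were their wildtype littermates. All animals were adult, on the C57BL/6 background, and received doxycycline (4 mg/ml) and sucrose (10%) in the drinking water over 8 days, control mice included. The promoter and cell type that drive the transgene are not given in the sources used here, and the level of miR-143 was not analysed here. The labels call the arrays biological replicates, so the spread between arrays includes that between animals, and precision is limited by having 3 arrays a group. The cells carried hepatocyte transcripts: 19 of 20 hepatocyte markers were measured, with mean levels of log2 12.75 to 12.81 in miR-143DOX and 12.65 to 12.85 in control.

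No respiratory chain or ATP synthase gene differed between miR-143DOX and control hepatocytes by enough, against the spread between arrays, to pass the test. Of the 88 genes, 87 were bright enough to be tested, and the testis isoform Cox7b2 was not. None of the 87 passed a false discovery rate of 5% in limma, with adjustment over all 15312 genes tested, and 0% of all genes did. The smallest adjusted p among the 87 was 0.9997, against 0.735 among all genes. At an unadjusted p under 0.05 the count was also 0 of 87, where 1.38% of all genes lay higher and 1.68% lay lower in miR-143DOX. None had all 3 miR-143DOX arrays above all 3 control arrays or below them, against 3.4% and 3.73% of all genes.

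The differences, given as miR-143DOX minus control on the log2 scale, were small. They ran between -0.25 for Ndufa12 and 0.31 for Uqcrb, with a median of 0.045, beside a median of 0.0083 over all genes tested. Of the 87 genes, 59 (67.8%) lay above 0, against 52.4% of all genes. The median standard error was 0.17, and the 95% intervals reached at most from -0.62 to 0.73. For 78 of the 87 (89.7%) the whole interval lay within 1.5-fold in both directions, against 85.3% of all genes. The 9 genes for which a larger difference lay within the interval were Ndufa4, Ndufa8, Uqcrb, Cox8a, Atp5e, Atp5g3, Atp5l, Atp5s and Atp5sl.

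By complex, the median difference was 0.022 for complex I (27 genes above 0 and 14 below), 0.11 for complex II (4 above), 0.12 for complex III (5 above and 2 below), 0.0051 for complex IV (9 above and 9 below) and 0.10 for ATP synthase (14 above and 3 below). These medians rested on single arrays. Without control replicate 3 the median over the 87 genes was -0.062 and all 5 complex medians lay below 0, and without miR-143DOX replicate 1 it was -0.030. Without control replicate 1 it was 0.16, and without miR-143DOX replicate 3 it was 0.14. The complex medians also moved with the summary of a gene's probe sets: complex IV was at -0.011 with their median and 0.13 with the brightest, complex I at 0.059 with either, complex III at 0.17 and 0.053, and ATP synthase at 0.088 and 0.19.

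**Figure D1:**
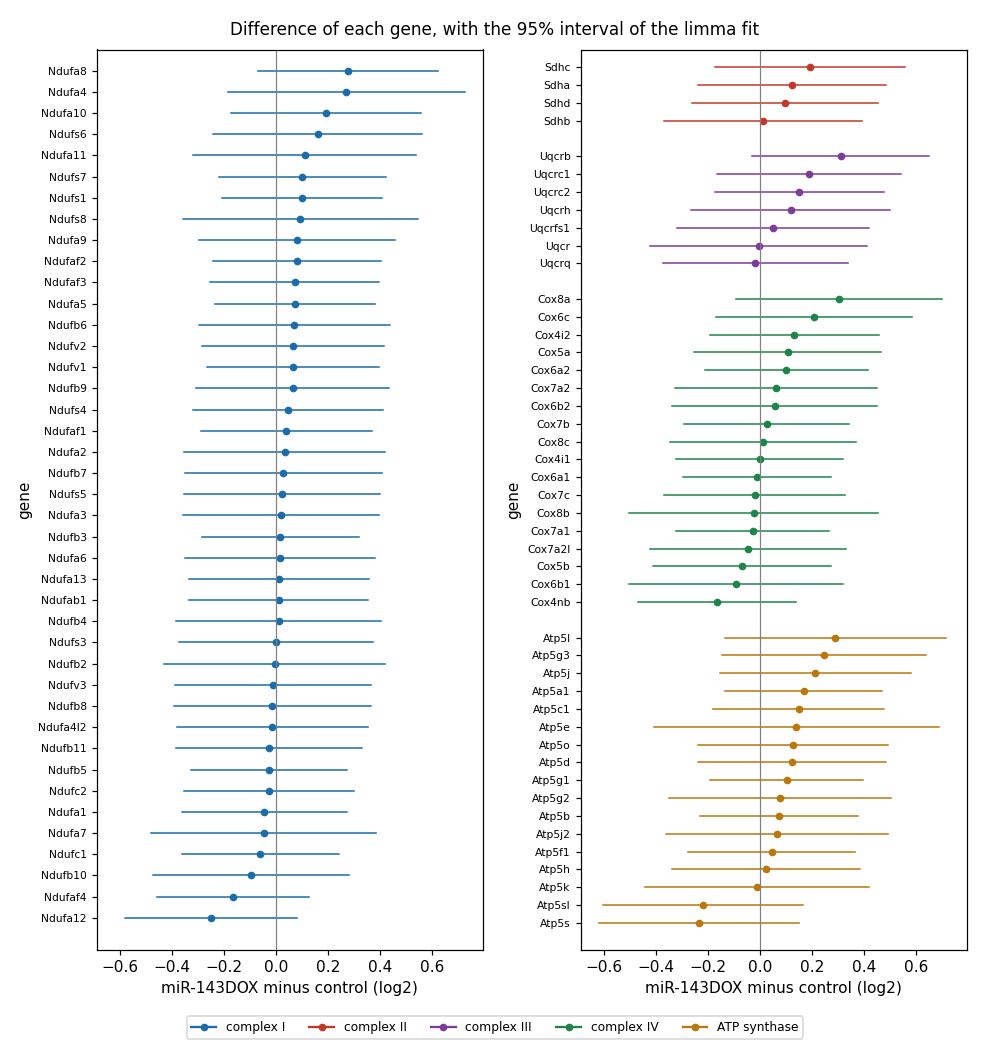
Difference of each of the 87 tested genes (log2, miR-143DOX minus control) by complex, with 95% intervals from limma. Intervals of all 87 genes cross 0, and the points lie between -0.25 and 0.31.

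The subunits differed far more from array to array than between the groups. As a mean over the 88 genes, each taken relative to its own mean over the 6 arrays, the value was 0.19 in miR-143DOX replicate 1, 0.031 in replicate 2 and -0.14 in replicate 3, against 0.19, -0.023 and -0.24 in control replicates 1, 2 and 3. In both groups replicate 1 was thus high and replicate 3 low. With 1 array per animal, a difference between mice cannot be told apart from one in the handling of samples or arrays by replicate number. The 3 miR-143DOX arrays spanned 0.33 and the 3 control arrays 0.43, and the group means differed by 0.050. Over all tested genes the same measure stayed between -0.022 and 0.017 in miR-143DOX and between -0.026 and 0.027 in control, but quantile normalization holds that mean near 0 by construction. In bulk RNA, less transcript per cell cannot be told apart from fewer cells that make it.

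This order held gene by gene. In miR-143DOX replicate 1, 80 of the 88 genes lay above their own mean, in replicate 2 it was 51 and in replicate 3 it was 7, against 81, 30 and 9 in control replicates 1, 2 and 3. Among the miR-143DOX arrays, replicate 1 was the highest for 72 of the 87 tested genes (36.2% of all genes) and replicate 3 the lowest for 76 (42.7% of all genes). Among the control arrays, replicate 1 was the highest for 76 (45% of all genes) and replicate 3 the lowest for 75 (41.8% of all genes). Over all 6 arrays the highest value fell in miR-143DOX replicate 1 for 37 of the 88 genes and in control replicate 1 for 44. The lowest fell in control replicate 3 for 60. Shares of all genes were not counted for these 6-array counts or for the counts above a gene's own mean. Neither can thus be set against the array as a whole.

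**Figure D2:**
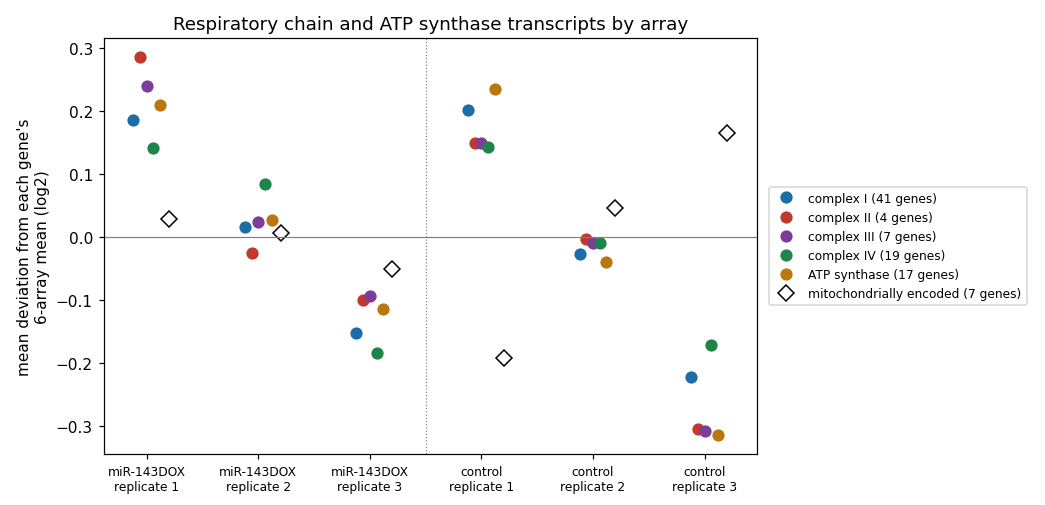
Mean deviation of the genes of each complex from their own means over the 6 arrays (log2), by array, for the 5 complexes (filled circles) and the 7 measured mitochondrially encoded transcripts (open diamonds). The nuclear-encoded genes are high in replicate 1 and low in replicate 3 of both groups, while the mitochondrially encoded ones are lowest in control replicate 1 and highest in control replicate 3.

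All 5 complexes took part. Complex I stood at 0.19, 0.016 and -0.15 in miR-143DOX replicates 1, 2 and 3, against 0.20, -0.027 and -0.22 in the control replicates. For complex II the values were 0.29, -0.026 and -0.10 in miR-143DOX, against 0.15, -0.0030 and -0.31 in control. Complex III had 0.24, 0.024 and -0.093 in miR-143DOX, against 0.15, -0.0096 and -0.31 in control. In every one of these complexes replicate 1 was the highest and replicate 3 the lowest array of its group. Complex IV had 0.14, 0.084 and -0.18 in miR-143DOX, against 0.14, -0.0096 and -0.17 in control. ATP synthase had 0.21, 0.027 and -0.11 in miR-143DOX, against 0.23, -0.040 and -0.31 in control.

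Pairs of these genes had a median Pearson r of 0.77 over the 6 arrays, and 58.2% of pairs were over 0.7, whereas pairs of all tested genes had a median of 0.023 with 8.23% over 0.7. These correlations share the same 6 arrays, and with them each array's RNA and scaling, and they are given as a description only. The 72 genes for subunits used in most tissues had a median r of 0.92 with the mean of the other genes, and 63 of them were over 0.7. The 8 tissue isoforms and paralogs had a median of 0.55, with 2 over 0.7. The 8 assembly and other factors had a median of 0.48, with 3 over 0.7. The tissue isoforms lay near the brightness below which genes were left out (log2 5.06), and the part of that in their lower correlation was not tested.

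**Figure D3:**
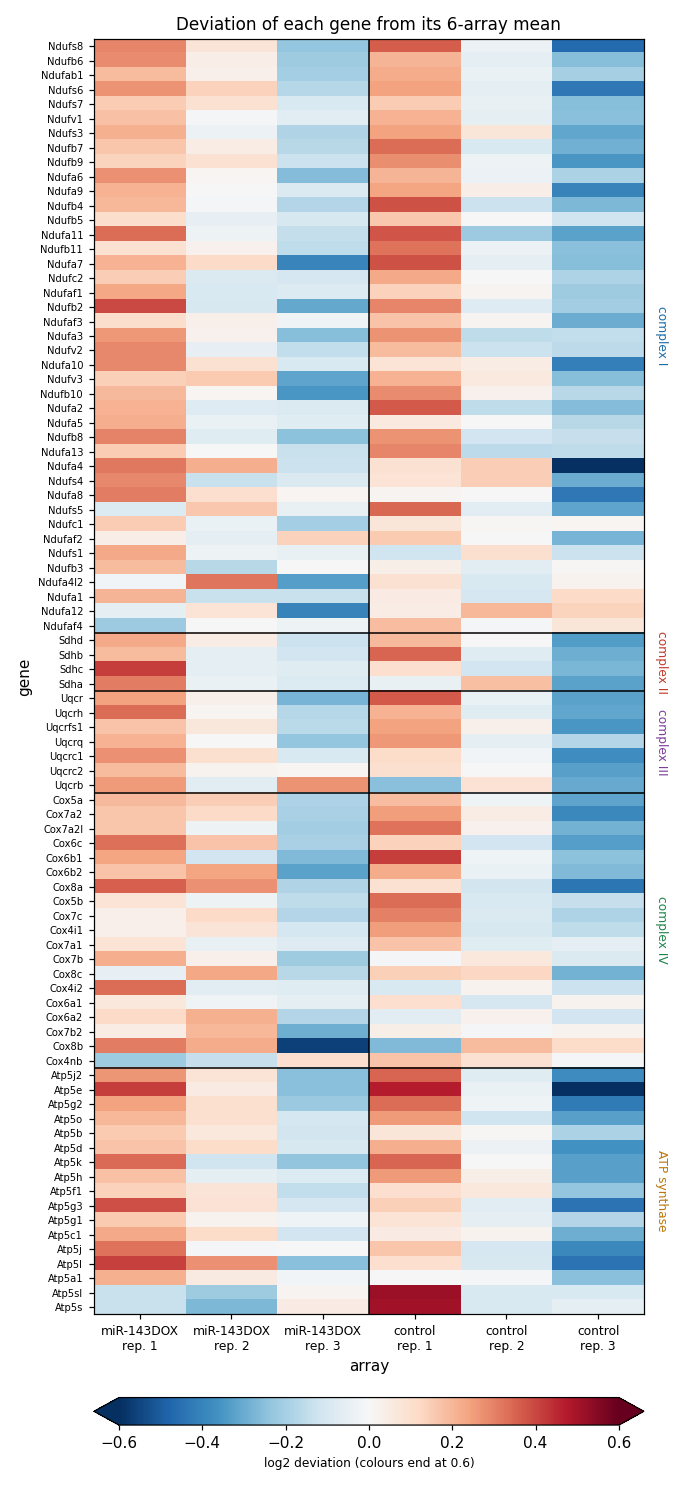
Deviation of each of the 88 genes from its own mean over the 6 arrays (log2, colour), with the genes in rows by complex and the miR-143DOX arrays left of the control arrays. Most rows are high in replicate 1 and low in replicate 3 of both groups, and control replicate 3 is the lowest array for 60 genes. The share of all genes lowest there was not counted.

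Several measures of the arrays can be set beside this order. The deposited values had 95th percentiles of 10.28, 10.29 and 10.40 in miR-143DOX replicates 1, 2 and 3, against 10.26, 10.35 and 10.38 in control, and thus ran opposite to the subunits before they were scaled. Without scaling, the mean of the 88 genes was still 0.15, -0.00029 and -0.083 in miR-143DOX, against 0.15, -0.013 and -0.20 in control. Stellate cell markers (12 of 12 measured) deviated by 0.20, -0.12 and -0.051 in miR-143DOX replicates 1, 2 and 3, against 0.034, 0.0099 and -0.075 in control, so that replicate 1 was the highest array of each group, and replicate 3 the lowest in control. Their mean levels were log2 6.88 to 7.19 in miR-143DOX and 6.92 to 7.03 in control. Kupffer cell markers (12 of 13) deviated by 0.20, -0.16 and 0.020 in miR-143DOX, against -0.014, -0.078 and 0.029 in control. Sinusoidal endothelial markers (14 of 14) deviated by 0.19, -0.34 and -0.039 in miR-143DOX, against 0.0027, 0.039 and 0.15 in control. Of these endothelial genes 12 lay below 0 between the groups, where 52.4% of all genes lay above 0. Their median difference was -0.14, with mean levels of log2 7.22 to 7.76 in miR-143DOX and 7.57 to 7.71 in control. On the lower side 1 of the 14 had an unadjusted limma p under 0.05, where 1.68% of all genes did. Hepatocyte markers deviated by -0.023, -0.011 and 0.039 in miR-143DOX, against -0.12, 0.044 and 0.073 in control, with replicate 1 the lowest and replicate 3 the highest array of each group, opposite to the subunits. Markers of cholangiocytes (7 of 7), blood cells (12 of 15) and muscle (8 of 8) averaged between 5.13 and 5.53 in miR-143DOX and between 5.09 and 5.57 in control. The clock output gene Dbp less its opposite-phase partner Arntl gave -1.25, 0.90 and 3.00 in miR-143DOX replicates 1, 2 and 3, against 4.52, 0.26 and 0.85 in control. The part of these measures in the order of the arrays was not tested.

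As a mean, the transcripts encoded by mitochondrial DNA ran in the same order as the subunits in miR-143DOX, over a narrower range. In control they ran in the opposite order. Within miR-143DOX the order did not hold gene by gene, and ND2 rose with log2 14.54, 14.57 and 14.65 in replicates 1, 2 and 3. Of 13 written, 7 were measured. Their mean deviations were 0.027, 0.0059 and -0.051 in miR-143DOX replicates 1, 2 and 3, against -0.19, 0.046 and 0.16 in control. They were thus lowest in control replicate 1, where the nuclear-encoded subunits were high, and highest in control replicate 3, where those were low. ND1, a membrane subunit of complex I, had log2 14.61, 14.52 and 14.59 in miR-143DOX, against 14.24, 14.50 and 14.66 in control. COX1, which holds the oxygen-reducing site of complex IV, had 14.45, 14.39 and 14.42 in miR-143DOX, against 14.10, 14.41 and 14.45 in control. Control replicate 1 was the lowest array for both. Albumin, the main secreted protein of hepatocytes, also had its lowest value there, with 14.44, 14.48 and 14.32 in miR-143DOX, against 14.11, 14.50 and 14.51 in control. ND4L had 13.02, 12.98 and 12.94 in miR-143DOX, against 12.95, 13.11 and 13.30 in control, a difference of -0.14. ND6 had 10.87, 10.94 and 10.57 in miR-143DOX, against 10.69, 10.97 and 11.19 in control, a difference of -0.16. In ND4L and ND6 miR-143DOX replicate 3 was the lowest array, not control replicate 1. None of the 7 mitochondrially encoded transcripts had an unadjusted p under 0.05 between the groups, and their median difference was -0.0074.

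The promoters of these genes are known for sites of NRF1, of ETS factors such as GABP and of YY1. RefSeq windows from 250 bases before to 50 after the start (build GRCm38.p6) were found for 73 of the 88 genes, 79 windows in all, and were searched on both strands. A form of the NRF1 site, GCGCA and GCGC with any base between them, was in 24.1% of these windows and in 6.88% of the windows of all genes on the array. CCGGAAG, a form of the ETS site, was in 21.5% of these windows and in 12.1% of all array genes' windows. AAGATGGCG, a form of the YY1 site, was in 11.4% and 1.96%. By comparison GGGCGG, the SP factor box, was in 43% of these windows and 49.4% of all array genes' windows. TCAAGGTCA, the site of estrogen-related receptors, was in only 2 of the 79 windows (2.53%) and in 0.305% of all array genes' windows. At least 1 of the NRF1, ETS and YY1 forms was found in 37 of the 73 genes, in any of a gene's windows. The share of all array genes with any of these forms was not counted, so the 37 cannot be read as many or few. A match is a run of letters and shows no binding.

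The following windows show such matches in 1 gene of each complex, chosen as the gene with the smallest unadjusted p among those with a match and a window, and in Atp5j, which shares its promoter region with Gabpa. Capitals mark the NRF1, ETS and YY1 forms on either strand, and each window is written 5′ to 3′ along its gene's strand. Ndufa8 lies at chr2:36049289-36049588, minus strand; Sdha at chr13:74350191-74350490, minus strand; Uqcrc1 at chr9:108936398-108936697, plus strand. Cox8a lies at chr19:7217567-7217866, minus strand; Atp5l at chr9:44920693-44920992, minus strand; Atp5j at chr16:84834927-84835226, minus strand.
Ndufa8: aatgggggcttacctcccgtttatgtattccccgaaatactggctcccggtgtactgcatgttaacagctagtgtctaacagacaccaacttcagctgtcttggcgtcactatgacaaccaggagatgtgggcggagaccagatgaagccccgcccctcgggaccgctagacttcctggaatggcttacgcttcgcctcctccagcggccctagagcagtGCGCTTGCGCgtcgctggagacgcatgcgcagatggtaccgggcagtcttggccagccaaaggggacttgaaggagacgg
Sdha: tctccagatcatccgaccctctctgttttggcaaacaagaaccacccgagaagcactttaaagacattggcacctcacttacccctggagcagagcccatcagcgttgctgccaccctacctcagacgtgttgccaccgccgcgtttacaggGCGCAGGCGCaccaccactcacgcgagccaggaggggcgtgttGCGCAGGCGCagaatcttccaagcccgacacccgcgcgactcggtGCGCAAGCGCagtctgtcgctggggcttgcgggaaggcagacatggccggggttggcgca
Uqcrc1: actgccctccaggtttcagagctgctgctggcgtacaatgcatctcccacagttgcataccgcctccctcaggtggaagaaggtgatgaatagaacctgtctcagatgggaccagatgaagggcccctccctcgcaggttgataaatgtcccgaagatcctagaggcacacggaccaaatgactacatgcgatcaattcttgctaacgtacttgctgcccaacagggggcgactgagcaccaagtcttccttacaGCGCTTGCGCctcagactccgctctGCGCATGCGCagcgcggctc
Cox8a: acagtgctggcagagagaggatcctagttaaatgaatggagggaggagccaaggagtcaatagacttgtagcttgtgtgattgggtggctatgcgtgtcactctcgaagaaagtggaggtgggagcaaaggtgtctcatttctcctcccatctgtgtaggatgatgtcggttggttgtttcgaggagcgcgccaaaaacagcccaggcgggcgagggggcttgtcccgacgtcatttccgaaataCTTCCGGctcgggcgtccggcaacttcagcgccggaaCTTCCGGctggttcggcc
Atp5l: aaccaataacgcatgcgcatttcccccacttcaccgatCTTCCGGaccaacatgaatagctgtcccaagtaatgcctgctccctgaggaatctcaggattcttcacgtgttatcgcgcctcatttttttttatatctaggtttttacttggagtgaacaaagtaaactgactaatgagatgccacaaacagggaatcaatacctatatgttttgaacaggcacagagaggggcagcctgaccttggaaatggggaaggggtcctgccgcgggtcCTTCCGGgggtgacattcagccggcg
Atp5j: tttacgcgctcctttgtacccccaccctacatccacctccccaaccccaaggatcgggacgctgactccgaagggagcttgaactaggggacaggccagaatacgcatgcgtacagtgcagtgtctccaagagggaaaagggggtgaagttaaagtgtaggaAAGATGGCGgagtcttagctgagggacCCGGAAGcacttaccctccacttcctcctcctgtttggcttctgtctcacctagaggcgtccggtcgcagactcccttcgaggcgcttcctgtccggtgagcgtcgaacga
Ndufa8 holds 1 NRF1 form, Sdha holds 3 and Uqcrc1 holds 2. Cox8a and Atp5l hold 2 ETS forms each. Atp5j holds 1 ETS and 1 YY1 form, and its window shares 247 bases with that of Gabpa, which codes for the DNA-binding subunit of GABP and is read from the opposite strand, with 148 bases between the starts.

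Complex I holds the flavin and iron-sulfur core and many accessory subunits. Of its 6 measured core subunits 5 lay above 0, with a median difference of 0.079, and of 29 accessory subunits 18 did, with a median of 0.015. Ndufv1, the flavin-binding entry point for electrons from NADH, averaged 9.98 ± 0.13 in miR-143DOX and 9.91 ± 0.23 in control (log2, SD, n = 3 each). Ndufs1, the largest iron-sulfur subunit, averaged 9.77 ± 0.15 in miR-143DOX and 9.67 ± 0.13 in control. Ndufab1, the mitochondrial acyl carrier protein, averaged 9.38 ± 0.20 in miR-143DOX and 9.37 ± 0.21 in control. In each of these the groups overlapped.

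Ndufa8, an accessory subunit of the intermembrane space side, had the smallest unadjusted p of complex I. Its values were 9.42, 9.21 and 9.12 in miR-143DOX, against 9.13, 9.11 and 8.69 in control. Only the lowest miR-143DOX array and the highest control array crossed, by less than 0.01, and control replicate 3 was the lowest. The difference was 0.28 (SE 0.16, 95% interval -0.07 to 0.62), and all 5 of its probe sets lay above 0, between 0.16 and 0.53. Ndufa12, an accessory subunit of the matrix arm, had 9.04, 9.18 and 8.70 in miR-143DOX, against 9.15, 9.30 and 9.23 in control, with a difference of -0.25 (SE 0.15, 95% interval -0.58 to 0.08). Replicate 3 was the low array of miR-143DOX, and replicate 2 overlapped the control arrays. One of its 3 probe sets lay at -0.71 and the others at -0.03 and -0.01. Ndufa12 also stood apart from the shared order, with an r of 0.11 to the mean of the other genes.

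Ndufa4, named for complex I and now placed in complex IV, had 10.99, 10.89 and 10.54 in miR-143DOX, against 10.76, 10.82 and 10.03 in control. Control replicate 3 stood alone at the low end, and without it the difference of 0.27 (SE 0.21, 95% interval -0.19 to 0.73) became 0.02. One of its 5 probe sets lay at 1.11, and their median was 0.15. Of the 4 assembly factors 3 lay above 0, with a median of 0.056. Ndufaf4 was the exception, at 8.02, 8.24 and 8.20 in miR-143DOX against 8.42, 8.23 and 8.31 in control, a difference of -0.17 (95% interval -0.46 to 0.13). It was lowest in miR-143DOX replicate 1, where most subunits were high, and its r with the mean of the other genes was -0.17.

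Complex II, succinate dehydrogenase, is also an enzyme of the citric acid cycle and is encoded wholly in the nucleus. Sdha, its flavoprotein, averaged 11.23 ± 0.21 in miR-143DOX and 11.11 ± 0.25 in control. Sdhb, its iron-sulfur subunit, averaged 9.27 ± 0.16 in miR-143DOX and 9.25 ± 0.33 in control. The groups overlapped in both. Sdhc, a membrane anchor, had 10.69, 10.22 and 10.21 in miR-143DOX, against 10.38, 10.16 and 10.01 in control. Replicate 1 was the highest array in each group, and control replicate 1 lay above miR-143DOX replicates 2 and 3. The difference was 0.19 (SE 0.17, 95% interval -0.17 to 0.56), with its 6 probe sets between -0.14 and 0.53. Sdhd, the other anchor, averaged 10.15 ± 0.18 in miR-143DOX and 10.05 ± 0.27 in control.

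In complex III, Uqcrb had the largest difference of all the genes. It codes for a small subunit near the ubiquinone-binding site, and its values were 8.31, 7.99 and 8.32 in miR-143DOX, against 7.80, 8.14 and 7.75 in control. Control replicate 2 lay above miR-143DOX replicate 2, and the other arrays were separate. The difference was 0.31 (SE 0.16, 95% interval -0.03 to 0.65). Only 1 probe set names Uqcrb alone. The 5 that also name the predicted gene Gm5457 lay between -0.08 and 0.19, and with them added the difference was 0.10. Uqcrb did not follow the shared order (r of 0.13 with the mean of the other genes).

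The core proteins Uqcrc1 and Uqcrc2, which scaffold the complex on the matrix side, differed by 0.19 and 0.15 (95% intervals -0.17 to 0.54 and -0.17 to 0.48), with overlapping groups. For Uqcrc1 the values were 10.71, 10.53 and 10.34 in miR-143DOX, against 10.54, 10.42 and 10.07 in control. Uqcrfs1, the Rieske iron-sulfur protein that passes electrons on, averaged 8.37 ± 0.17 in miR-143DOX and 8.32 ± 0.30 in control. Uqcrh, the hinge protein, averaged 10.33 ± 0.26 in miR-143DOX and 10.21 ± 0.26 in control. Both followed the order of the arrays, with replicate 1 highest and replicate 3 lowest in each group.

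**Figure D4:**
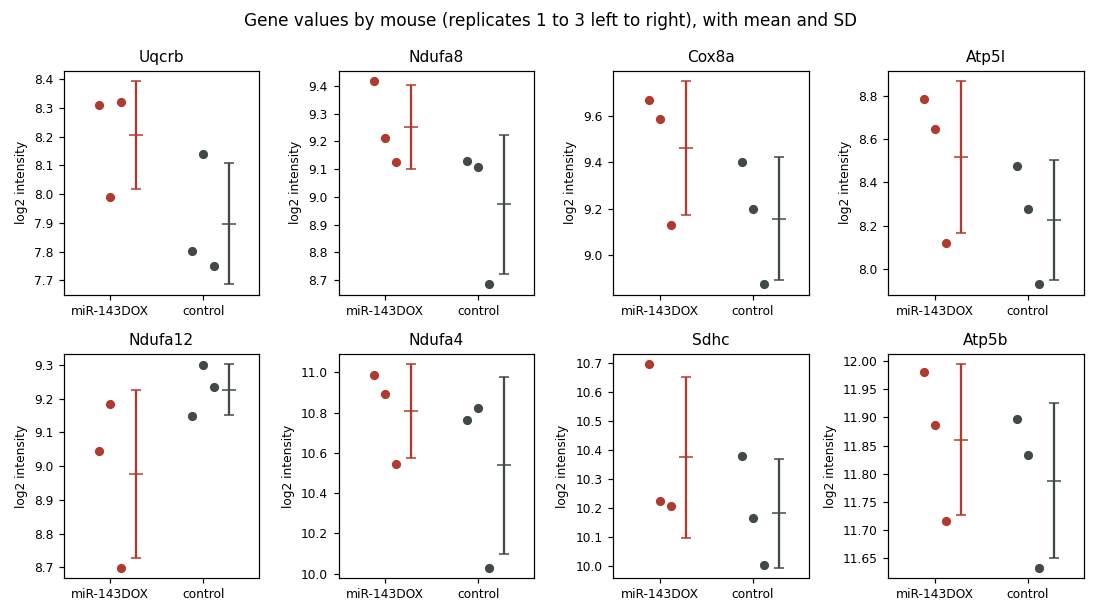
Log2 values of single genes in each mouse, with miR-143DOX left of control, replicates 1 to 3 from left to right, and the group mean ± SD beside them (n = 3 each). Values of the groups overlap in every gene shown.

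In complex IV, most of the isoforms that liver uses had group means close to each other, and 5 of the 10 general subunits lay above 0. Cox4i1, a regulatory subunit, averaged 10.54 ± 0.10 in miR-143DOX and 10.54 ± 0.22 in control. Cox5a averaged 9.19 ± 0.21 in miR-143DOX and 9.09 ± 0.25 in control, and Cox5b averaged 10.22 ± 0.12 in miR-143DOX and 10.29 ± 0.26 in control. Cox6a1, the isoform of non-muscle tissues, averaged 9.80 ± 0.06 in miR-143DOX and 9.81 ± 0.10 in control. It was the steadiest gene of all, with a range of 0.20 over the 6 arrays. Cox6b1, Cox7a2 and Cox6c differed by -0.09, 0.06 and 0.21, and Cox7a2l, which helps to join complexes III and IV, by -0.05. The groups overlapped in each.

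Cox8a, the isoform of complex IV's smallest subunit in liver and most tissues, had 9.67, 9.59 and 9.13 in miR-143DOX, against 9.40, 9.20 and 8.88 in control. Replicates 1 and 2 of miR-143DOX lay above all control arrays, and replicate 3 lay below control replicates 1 and 2. The difference was 0.30 (SE 0.18, 95% interval -0.09 to 0.70). It came mainly through 1 of 4 probe sets, at 0.90, with the others at 0.19, 0.07 and 0.05. Cox4nb, the gene that is no subunit, differed by -0.17 (95% interval -0.47 to 0.14), with 7 probe sets between -1.06 and 0.19 and a median of -0.02. With the median of the probe sets taken on each array, the difference of Cox4nb was -0.46, and with the brightest probe set it was 0.19.

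The muscle isoforms Cox6a2, Cox7a1 and Cox8b differed by 0.10, -0.03 and -0.02, and Cox4i2, the lung isoform, by 0.13 (95% interval -0.19 to 0.46). The testis isoforms Cox6b2 and Cox8c differed by 0.06 and 0.01, and Cox6b2 by 0.49 with the median of its probe sets taken on each array. All 6 averaged between log2 5.24 and 6.29 in both groups, with no detection call to tell these levels from background.

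**Figure D5:**
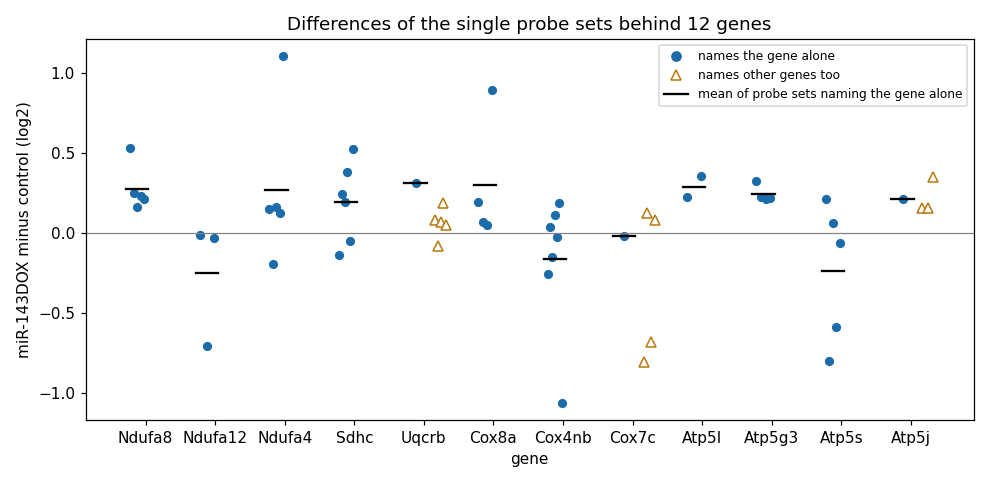
Difference (log2, miR-143DOX minus control) of each probe set of 12 genes, with circles for probe sets that name the gene alone, triangles for those that name other genes too, and a line at the mean of the circles. In genes such as Ndufa12, Cox8a and Ndufa4 a single probe set lies far from the others, and the lowest of Cox4nb and Atp5s lie at -1.06 and -0.80. In Ndufa8, Cox8a, Atp5g3, Atp5l and Atp5j all probe sets lie above 0.

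ATP synthase couples a membrane ring to a catalytic head. All 5 genes of the head and central stalk lay above 0 (median 0.14), as did the 3 c-ring genes (median 0.10) and the 4 of the peripheral stalk (median 0.086). Atp5b, the catalytic beta subunit, had 11.98, 11.89 and 11.72 in miR-143DOX, against 11.90, 11.83 and 11.63 in control. Replicate 1 was the highest and replicate 3 the lowest in both groups, and the difference was 0.07 (95% interval -0.23 to 0.38). Atp5a1, the alpha subunit, averaged 12.27 ± 0.12 in miR-143DOX and 12.10 ± 0.14 in control, with a difference of 0.17 (95% interval -0.13 to 0.47).

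The c-ring subunit is encoded by 3 genes whose mature proteins are the same. Atp5g3 had 11.92, 11.62 and 11.43 in miR-143DOX, against 11.68, 11.47 and 11.10 in control, a difference of 0.24 (SE 0.18, 95% interval -0.15 to 0.64). All 4 of its probe sets lay above 0, between 0.21 and 0.32. Each array of miR-143DOX was above the control array of the same rank, and the groups overlapped. Atp5g1 and Atp5g2 differed by 0.10 and 0.08. Atp5e, the epsilon subunit, had the widest range of all the genes over the 6 arrays, 1.11, with 9.47, 9.10 and 8.80 in miR-143DOX against 9.53, 9.01 and 8.41 in control.

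Atp5l, the membrane subunit g that helps ATP synthase to form dimers, had 8.78, 8.65 and 8.12 in miR-143DOX, against 8.47, 8.28 and 7.93 in control. Replicate 3 of miR-143DOX lay below control replicates 1 and 2. The difference was 0.29 (SE 0.19, 95% interval -0.13 to 0.71), with its 2 probe sets at 0.23 and 0.35. Atp5j, coupling factor 6 of the peripheral stalk, had 7.17, 6.83 and 6.84 in miR-143DOX, against 7.01, 6.74 and 6.45 in control, from 1 probe set of its own. Control replicate 1 lay above miR-143DOX replicates 2 and 3, and the difference was 0.21 (95% interval -0.15 to 0.58). Gabpa, its neighbour across the shared promoter region, differed by 0.09.

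The largest negative differences among genes with the Atp5 prefix were those of Atp5s and Atp5sl, which are not core subunits and are now named Dmac2l and Dmac2. Atp5s had 6.08, 5.95 and 6.27 in miR-143DOX, against 6.72, 6.12 and 6.16 in control. Control replicate 1 stood above the other 5 arrays, which overlapped. The difference was -0.24 (SE 0.18, 95% interval -0.62 to 0.15), and without control replicate 1 it was -0.04. Atp5sl, chosen after its values were seen, had 8.08, 8.00 and 8.23 in miR-143DOX, against 8.73, 8.12 and 8.12 in control, a difference of -0.22 that became -0.02 without control replicate 1.

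Other genes of the pathway were taken from lists. Of 17 tested regulators of mitochondrial biogenesis 6 lay above 0 and 11 below, with a median difference of -0.10, and 2 had an unadjusted p under 0.05 on the lower side, where 1.68% of all genes did. One was Ppargc1a, the coactivator PGC-1alpha, with 6.89, 6.45 and 6.41 in miR-143DOX, against 7.64, 6.95 and 6.78 in control. Replicate 1 was the highest array in each group, and the miR-143DOX value of that replicate lay between the control values. The difference was -0.54 (SE 0.22, 95% interval -1.01 to -0.07, limma adjusted p = 0.9997). Without control replicate 1 it was -0.28, and with the brightest probe set alone -0.18. Without control replicate 3 it was -0.71. The unadjusted limma p of Ppargc1a was under 0.05 in 11 of 18 other settings. The other was Polg2, the accessory subunit of the mitochondrial DNA polymerase, with 5.61, 5.52 and 5.90 in miR-143DOX, against 6.06, 5.89 and 6.03 in control, a difference of -0.32 (95% interval -0.63 to -0.0046, limma adjusted p = 0.9997). The unadjusted limma p of Polg2 was under 0.05 in 8 of 16 other settings. Tfam, a transcription factor of mitochondrial DNA that also packages it, differed by -0.23 (95% interval -0.53 to 0.06).

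Assembly factors outside the prefixes had medians of -0.022 for complex I (2 of 5 above 0), -0.022 for complex II (1 of 2), -0.010 for complex III (1 of 3), 0.017 for complex IV (6 of 11) and -0.084 for ATP synthase (1 of 3). Cox16, an assembly factor of complex IV, had the largest difference of these, -0.42 (95% interval -0.85 to 0.01), and its unadjusted p was under 0.05 in 6 of 17 other settings, array weights and the replicate block among them. Nubpl, which inserts iron-sulfur clusters into complex I, followed with -0.27 (95% interval -0.59 to 0.05), and its 3 miR-143DOX arrays lay below all control arrays, as in 3.73% of all genes. Electron carriers and subunits outside the prefixes had a median of 0.098, with 5 of 7 above 0. Cycs, cytochrome c, differed by -0.04 and Etfdh, which passes electrons from fatty acid oxidation to ubiquinone, by 0.24. The citric acid cycle had a median of 0.082, with 10 of 13 above 0, and Cs, citrate synthase, differed by 0.24. Carriers of ADP, ATP and phosphate and uncoupling proteins had a median of 0.064, with 5 of 7 above 0, and Slc25a5, an ADP/ATP carrier, differed by 0.26. None of these assembly, carrier and cycle genes had an unadjusted p under 0.05 in the reported fit.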

How the data were processed

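The deposited table of 6 arrays holds log2 intensities of 234873 probe sets, between 1.60 and 15.2. The authors' values are taken as log2 from this range. Per the submitters' processing notes Partek was used; the authors' background correction, normalization and summary are not given in the sources used here. Per the labels' protocols, total RNA was extracted with Trizol and labelled by the whole transcript sense target method.

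The platform annotation gave 1 gene symbol for 212097 probe sets, several for 4475 and none for 18301; only the first kind was used. The 88 genes had 483 such probe sets, a median of 5 each (1 to 20), and 26 more named other genes too. Arrays were quantile normalized, a gene was the mean of its probe sets, and the dimmest 25% of genes (under log2 5.06) were left out. The comparison used limma 3.58.1 (R 4.3.3) with the group as the single factor, two-sided, and p-values adjusted by Benjamini-Hochberg over 15312 genes. Intervals are 95% intervals. The steps were run on simulated data, with genes drawn independently and planted changes larger than the difference of any of the 88 genes. That run does not show how well differences of this size are found. All 88 genes matched RefSeq, 5 under newer symbols.

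The members and lists were chosen with earlier results of these data known. Fewer than 10 members passed 5% FDR, so the genes named are the 4 of each complex with the smallest unadjusted p, a set of core subunits and tissue isoforms, and up to 2 of each other list. Ndufaf1 to Ndufaf3, Atp5e, Tfam, Cycs, Gabpa, Dbp, Arntl, Alb, ND1, ND2, COX1, Cox7b2 and Atp5sl are named besides. Alternatives were the deposited scale, median centring, other filters, other probe set summaries, weights per array, a robust prior with an intensity trend, a block for replicate number, a clock covariate (Dbp minus Arntl) and single arrays left out; probe sets shared with other genes were added after seeing the data.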

Additional observations from a re-analysis of the deposited data

How the results depend on the processing

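None of the genes passed 5% FDR under any of the 18 other settings. The count with an unadjusted limma p under 0.05 was 0 in the reported fit. It was 3 with the median over probe sets (Cox4nb, Cox6b2 and Sdhc), 1 with the brightest probe set (Ndufa12), 2 with array weights and 2 with the replicate block (Atp5l and Cox8a in both), and 0 to 2 with single arrays left out. Of the 40 members and 21 other genes followed through these settings, 29 changed sign at least once, 77 times in all. Where the reported difference exceeded its standard error (28 of the genes followed), these changed sign: with the brightest probe set Atp5s was 0.21, Cox4nb 0.19 and Uqcrc1 -0.0093, and with only probe sets brighter than the median Atp5s was 0.21 and Cox4nb 0.019. The cause was not tested.

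The replicate block gave 2 genes with an unadjusted p under 0.05 and none at 5% FDR. The deviations of same-numbered arrays had r of 0.11, 0.047 and 0.30 for replicates 1, 2 and 3. Arrays of different numbers had r from -0.26 (miR-143DOX replicate 1 with control replicate 3) to 0.15 (miR-143DOX replicate 1 with control replicate 2). The reported fit did not pair the mice by number. Whether the numbers mark pairs or a batch cannot be told from the labels or from these values. With single arrays left out, the median difference ran from -0.062 to 0.16 over all the genes, -0.076 to 0.14 for complex I, -0.026 to 0.20 for complex II, -0.021 to 0.24 for complex III, -0.062 to 0.12 for complex IV and -0.028 to 0.21 for ATP synthase. Over the other settings the medians ran from 0.037 to 0.11 over all the genes, 0.015 to 0.093 for complex I (highest with array weights), 0.089 to 0.14 for complex II, 0.050 to 0.17 for complex III (lowest with shared probe sets added), -0.011 to 0.13 for complex IV and 0.077 to 0.19 for ATP synthase. With 3 mice a group and a median standard error of 0.17, differences such as those seen here could not be told from 0, and low values could not be told from background.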
